A study of Mus musculus with 16 samples.

Results

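DNA replication genes and E2F target genes were followed across 16 RNA-seq libraries made from pre-B cells of the mouse, precursors of B cells that divide rapidly before their antigen receptor is complete. The members were 37 genes picked by symbol, and all 37 symbols were found among the 23279 that the files list. All 37 also passed the filter on low values, a value of 1 FPKM or more in 4 or more libraries, which kept 10210 genes for testing. FPKM counts the fragments of a transcript per kilobase of its length, corrected for how many fragments each library gave.

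The 4 groups of 4 libraries crossed BCR-ABL1, the constitutively active fusion kinase of Philadelphia chromosome leukaemias, with SHP2, the tyrosine phosphatase that the gene Ptpn11 encodes. SHP2 wild-type (+/+) and SHP2-null (-/-) pre-B cells were each measured without BCR-ABL1 (labelled BCR-ABL null) and with it. The title of the series is about a need for SHP2 in blood neoplasms that BCR-ABL1 causes. The sources used here do not give the strain, the age, the way BCR-ABL1 was introduced or the way Ptpn11 was inactivated. The labels do not tell whether the 4 libraries of a group, numbered 0 to 3, stem from different animals or cultures. The p-values therefore speak of the spread among these libraries, and that spread may be technical.

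Chromosome replication is prepared when the origin recognition complex, with Cdc6 and Cdt1, loads the Mcm2 to Mcm7 helicase onto origins. It starts when Cdc45 and the GINS complex join that helicase and the polymerases follow with their sliding clamp, Pcna. Most of these genes are held down by RB-family proteins in resting cells and are switched on by E2F transcription factors once cyclin-dependent kinases inactivate RB. In pre-B cells this programme is normally driven by interleukin 7 and the pre-B cell receptor, and BCR-ABL1 can take over that drive.

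Promoters come first, because E2F factors act on the members there. RefSeq promoter windows of 300 bases (250 before and 50 after the transcript start, mouse build GRCm38.p6) were found for 33 of the 37 members. Sites of the E2F type were searched as TTTCCCGC, TTTCGCGC, TTTGCCGC and TTTGGCGC on both strands, with overlapping matches counted. They were present in 13 of the 33 members (39.4%), beside 2.6% of 27025 genes with a window and 5.27% of the 7632 tested genes with a window. The CCAAT box, searched as CCAAT on both strands, was present in 60.6% of the members, beside 41.1% and 44.2%. Mcm6 had 3 E2F-type matches, of which 2 overlapped, and no other member had more. Mcm3, Mcm5, Mcm7 and Rfc3 had 2 each, and Cdc6, Cdt1, E2f2, Lig1, Orc1, Pold1, Pola1 and Uhrf1 had 1 in a window. The windows of Pcna, Tyms, Rrm2, E2f1, Chaf1b and Cdc45 held none, which says only that these letters are not there. The windows that follow belong to genes whose values the results turn on, Mcm7, Uhrf1, E2f2 and Cdc45, and to Mcm6 for its 3 matches. Where a gene had more than 1 window, the one with the most E2F-type matches is shown. Mcm7, Uhrf1 and E2f2 each had another window with no E2F-type match. The windows shown are written 5′ to 3′ on the strand of the gene, and capitals mark the E2F-type matches.
Mcm6 (chr1:128359656-128359955, minus strand): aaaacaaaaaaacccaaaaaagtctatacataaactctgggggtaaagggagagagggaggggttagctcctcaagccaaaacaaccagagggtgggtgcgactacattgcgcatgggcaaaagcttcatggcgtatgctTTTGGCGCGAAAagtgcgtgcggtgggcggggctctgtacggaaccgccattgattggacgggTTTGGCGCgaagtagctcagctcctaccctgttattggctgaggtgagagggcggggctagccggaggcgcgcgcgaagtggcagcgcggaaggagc
Mcm7 (chr5:138171834-138172133, minus strand): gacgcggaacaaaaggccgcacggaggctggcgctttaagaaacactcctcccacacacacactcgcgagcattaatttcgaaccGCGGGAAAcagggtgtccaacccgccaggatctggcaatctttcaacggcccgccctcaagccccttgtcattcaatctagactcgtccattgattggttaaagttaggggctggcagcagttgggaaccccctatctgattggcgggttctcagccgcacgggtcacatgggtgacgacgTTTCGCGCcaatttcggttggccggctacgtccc
Uhrf1 (chr17:56304063-56304362, plus strand): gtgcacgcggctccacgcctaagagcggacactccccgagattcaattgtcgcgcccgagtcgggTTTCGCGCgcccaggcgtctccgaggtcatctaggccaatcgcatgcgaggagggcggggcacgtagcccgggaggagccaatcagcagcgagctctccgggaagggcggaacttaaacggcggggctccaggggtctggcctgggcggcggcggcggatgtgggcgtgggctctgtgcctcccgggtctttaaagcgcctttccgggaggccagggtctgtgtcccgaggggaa
E2f2 (chr4:136172024-136172323, plus strand): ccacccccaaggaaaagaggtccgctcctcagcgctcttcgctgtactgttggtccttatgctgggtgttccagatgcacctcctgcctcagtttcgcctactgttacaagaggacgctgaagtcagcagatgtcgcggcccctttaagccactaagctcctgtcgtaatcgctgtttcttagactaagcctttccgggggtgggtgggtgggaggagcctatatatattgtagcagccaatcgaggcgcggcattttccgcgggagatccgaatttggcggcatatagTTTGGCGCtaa
Cdc45 (chr16:18811923-18812222, minus strand): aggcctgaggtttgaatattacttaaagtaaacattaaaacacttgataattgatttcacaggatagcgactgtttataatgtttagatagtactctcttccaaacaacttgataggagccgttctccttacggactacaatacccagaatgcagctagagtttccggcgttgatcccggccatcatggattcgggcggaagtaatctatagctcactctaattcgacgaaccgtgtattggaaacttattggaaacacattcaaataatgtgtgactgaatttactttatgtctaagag
In Mcm6 the overlapping pair lay at bases -110 to -99 from the start and the other match at -47 to -40, counting the start base as 0. In Mcm7 the matches lay at -165 to -158 and at 16 to 23, so that the latter fell within the transcript from that start. The whole Mcm7 window lies inside the annotated gene (chr5:138164583-138172422), and the Uhrf1 window shown lies inside its gene too.

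Ptpn11 was at 15.7 to 18.0 FPKM in the 8 libraries labelled SHP2 wild type and at 2.87 to 7.43 FPKM in the 8 labelled null, with no overlap. Estimated relative depth spanned a ratio of 1.59 between libraries, and absolute depth is unknown because the files hold no counts. Among the pre-B markers, Cd79a was at 170.1 to 294 FPKM, and Vpreb1 and Igll1, which encode the surrogate light chain, were at 361 to 632 and 565 to 786 FPKM. Rag2 was lower, at 1.64 to 8.66 FPKM, and was detected in every library. Stromal markers summed to at most 0.112 FPKM, markers of erythroid cells and megakaryocytes to 0.918 FPKM, and markers of T and NK cells to 3.36 FPKM. Mast cell markers summed to 0.246 to 12.1 FPKM. The SHP2-null library 2 without BCR-ABL1 stood apart, with 403 FPKM of the lysozyme gene Lyz2 against at most 34.3 FPKM in any other library. Its 8 myeloid markers in the table summed to 429 FPKM, against at most 32.1 FPKM in the other 3 groups. Most of that sum was Lyz2. Over the 16 libraries Mpo, Elane and Cd14 reached at most 0.518 FPKM, and Csf1r, Itgam, Cd68 and Fcer1g had maxima of 1.96 to 12.4 FPKM. For the comparisons that use this library, the members' counts by sign, medians and named estimates are also given without it, and the part of other cells in them was not tested.

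The members were well-expressed genes. Their mean over 16 libraries ran from 6.32 FPKM for E2f1, a transcription factor that switches the programme on, to 403 FPKM for the clamp Pcna, with a median of 41.2 FPKM beside 9.80 FPKM for all tested genes. Of the 37, 35 lay at or above the median of tested genes and 13 at or above the 90th percentile. The lowest library was at or above 1 FPKM for all 37 and at or above 10 FPKM for 34, the exceptions being Orc1, Cdt1 and E2f1.

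The licensing genes ranged from 9.11 FPKM for Orc1, the subunit of the origin recognition complex, to 182 FPKM for Mcm6. The helicase subunits Mcm2 to Mcm7, which form a ring with 1 copy of each, were not at equal RNA levels. Mcm6 was the highest of the 6 in 16 of 16 libraries, either Mcm2 or Mcm4 was the lowest in 16 of 16, and the ratio of highest to lowest subunit was 2.18 to 3.18. The helicase activation genes Cdc45, Mcm10, Gins1 and Gins2 lay in a narrow band of 27.4 to 37.4 FPKM. The polymerase, primase and RPA genes lay between 29.3 FPKM for Pole and 53.3 FPKM for Prim1. The nucleotide supply genes ran from 24.4 FPKM for Tyms, which makes thymidylate, to 120.2 FPKM for Rrm1, the large subunit of ribonucleotide reductase. E2f2 was above E2f1 in 16 of 16 libraries, by 3.05 to 5.40 times.

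**Figure D1:**
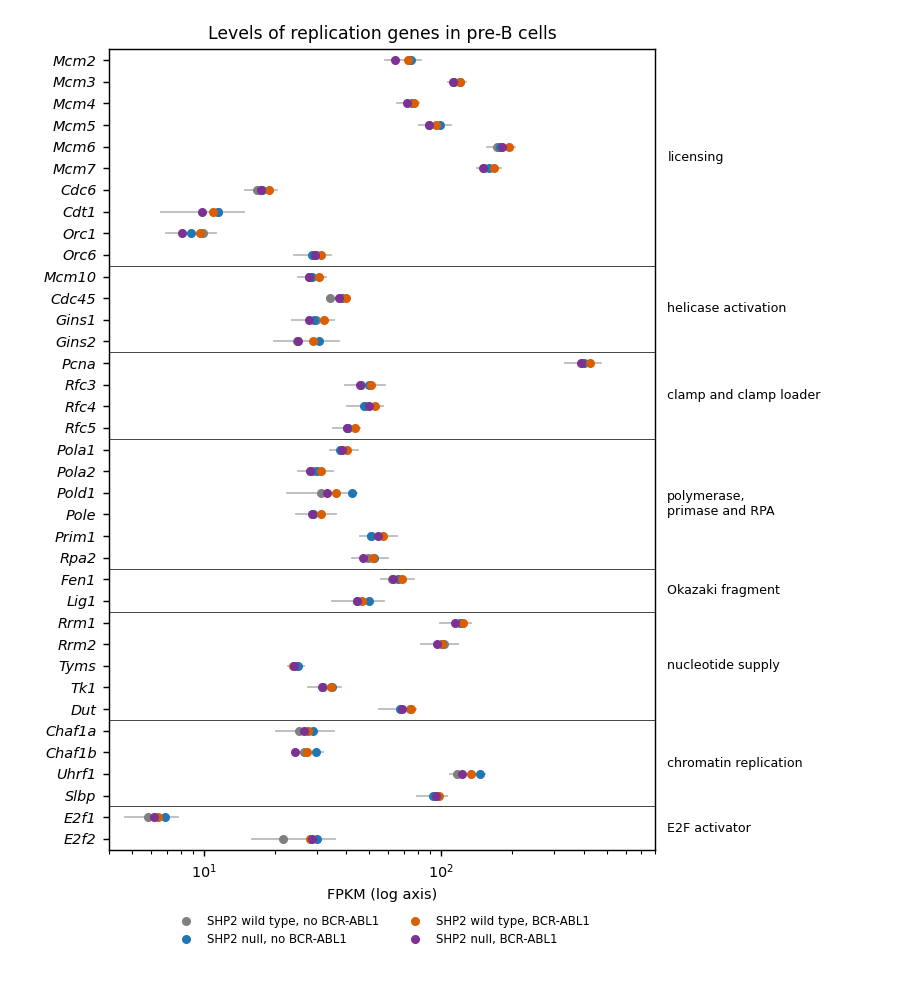
Mean FPKM (log axis) of the 37 replication genes in each of the 4 groups (coloured points, n = 4 libraries each), with a grey line from the lowest to the highest of the 16 libraries, by role. The 4 group means of a gene lie close together, with a median ratio of highest to lowest group mean of 1.11, while genes span 6.32 to 403 FPKM.

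Within a gene the values moved little. The ratio of the highest to the lowest of 16 libraries had a median of 1.41 over the members and ran from 1.17 for Tyms to 2.24 for E2f2. In the 6490 tested genes at least as high as E2f1 the median ratio was 1.47. The ratio of the highest to the lowest group mean had a median of 1.11, with 1.05 for Tyms and 1.39 for E2f2, beside 1.14 in the same 6490 genes.

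Tyms, the flattest gene, was at 24.3, 24.3, 25.0 and 25.4 FPKM in SHP2 wild-type libraries 0 to 3 without BCR-ABL1. SHP2-null libraries without BCR-ABL1 had 23.9, 22.9, 26.6 and 26.4 FPKM. With BCR-ABL1, wild-type libraries had 22.8, 22.7, 24.9 and 24.5 FPKM and null libraries 25.1, 22.7, 24.2 and 23.8 FPKM of Tyms. All 4 groups overlapped.

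Loss of SHP2 in BCR-ABL1 cells was followed by slightly lower estimates for nearly all members, none of which passed the test. The log2(FPKM + 1) difference between null and wild-type cells was negative for 35 of the 37, beside 57.3% of all tested genes, and the median was -0.12, beside -0.017. It was negative for 33 when libraries were quantile normalized, with a median of -0.053. The limma fit of all 10210 genes left out the replicate number. In it 0 of the 37 reached an adjusted p below 0.05, beside 0.313% of all tested genes. An unadjusted p below 0.05 was found in that fit for 4, beside 3.65%. For all 37 the 95% interval of the difference lay within a change of 1.5-fold in either direction. With the replicate number as a block in limma, 0 of the 37 were called, beside 0.47% of all tested genes. Gins1, Pola2, Mcm10 and Rfc3 then had an unadjusted p below 0.05 as well. The share of all tested genes at that bound in the block fit is not given. Fewer cells in S phase and less RNA per cell cannot be told apart in bulk samples.

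Orc1, at chr4:108579423-108614833 of GRCm38, had the smallest p of the members in this comparison. It was at 9.96, 8.80, 9.63 and 10.2 FPKM in wild-type libraries 0 to 3 with BCR-ABL1 and at 8.74, 6.97, 8.06 and 8.56 FPKM in null libraries. Every null library was below every wild-type library. The means were 9.64 ± 0.599 and 8.08 ± 0.797 FPKM (SD, n = 4), and limma gave a log2 difference of -0.23 ± 0.078 (SE) with an adjusted p of 0.843. With the replicate number as a block the adjusted p of Orc1 from limma was 0.0840, still above the threshold. An exon of the annotated gene Gm12743 overlaps exons of Orc1 on the other strand, and the sources used here do not give how strand was handled in counting.

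Mcm7, another subunit of the helicase ring, was the other member without overlap. It was at 179.6, 163, 164 and 166 FPKM in wild-type libraries with BCR-ABL1 and at 151, 146, 150.1 and 155 FPKM in null libraries. All 4 null libraries lay below all 4 wild-type libraries. The log2 difference of Mcm7 was -0.16 ± 0.065 (SE), with an unadjusted p of 0.0270 and an adjusted p of 1.00 from limma. These 2 of 37 members without overlap, both lower in null cells, compare with 3.1% of tested genes in either direction and 1.67% lower. Mcm7 lies 17 Mb from Ptpn11 on chromosome 5, and its exons overlap those of Cops6 and Ap4m1 on the other strand and of Mir25 and Mir93 on its own.

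With BCR-ABL1, wild-type libraries held 73.9, 68.9, 76.2 and 72 FPKM of Mcm2, and null libraries held 58.3, 63.4, 61.8 and 72.4 FPKM. Null library 3 lay among the wild-type values, and the log2 difference was -0.19 ± 0.081 (SE) with an adjusted p of 1.00 from limma. Chaf1b, a subunit of the histone chaperone CAF-1, was the fourth member with an unadjusted p below 0.05, at -0.16 ± 0.072 (SE).

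By role, all 10 licensing members had negative differences (median -0.11), as did all 4 helicase activation members (median -0.17), all 4 clamp and clamp loader members (median -0.12) and all 6 polymerase, primase and RPA members (median -0.13). The 2 members with positive values were Tyms at 0.015 and E2f2 at 0.025. Pcna, at chr2:132249162-132253314, was at 455, 358, 448 and 445 FPKM in wild-type libraries and at 369.7, 334, 414 and 433 FPKM in null libraries, and the ranges overlapped. Its log2 difference was -0.14 ± 0.11 (SE). Pcna and Tyms have annotated pseudogenes, and the handling of reads that match both is not given.

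**Figure D2:**
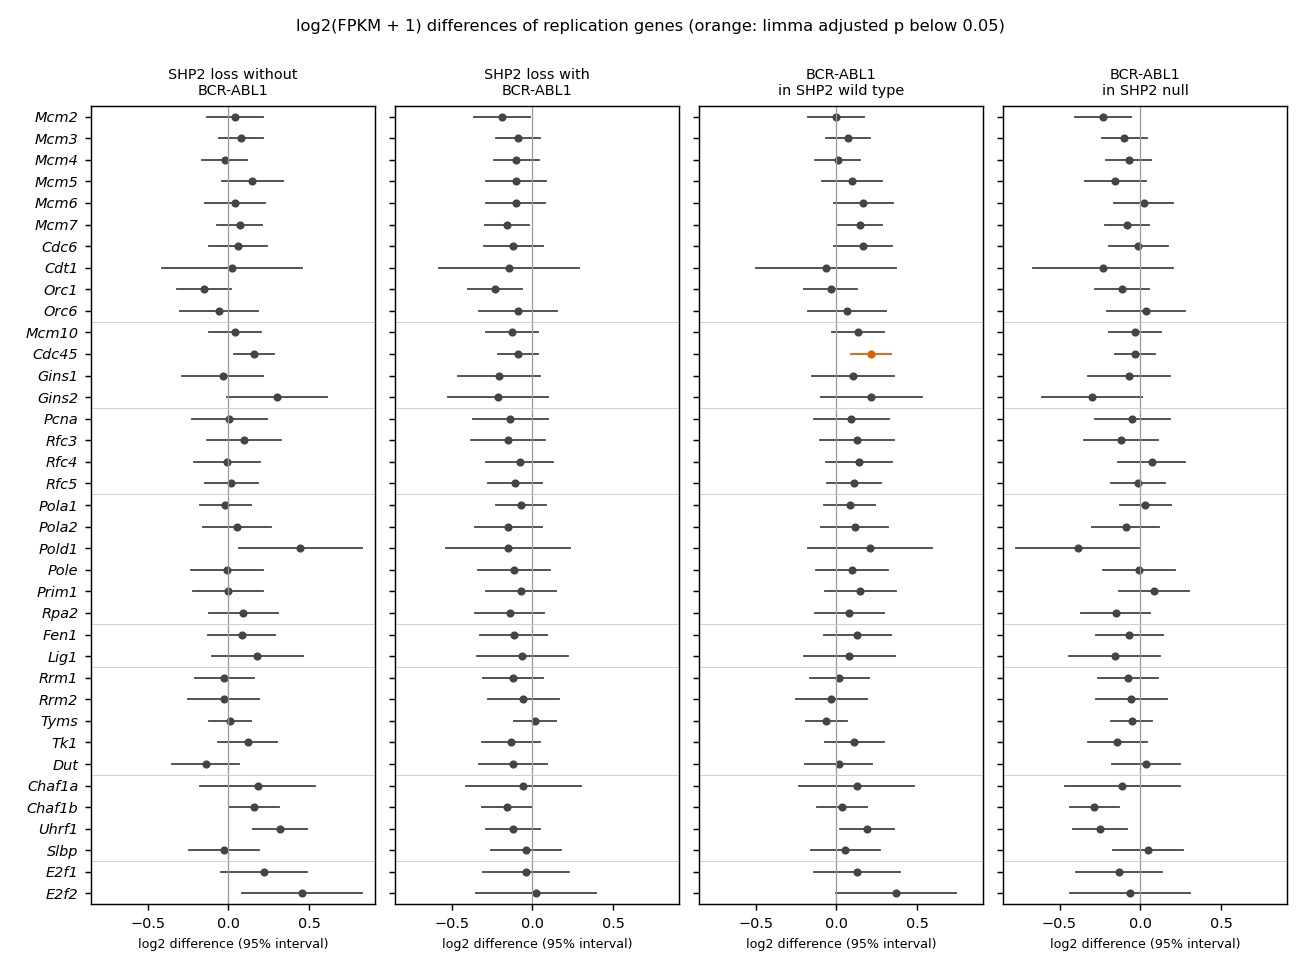
Differences in log2(FPKM + 1) of the 37 replication genes in 4 comparisons, each point a limma estimate and each line its 95% interval, by role from licensing at the top to E2F activators at the bottom. Estimates lie between -0.39 and 0.45, and the orange point, Cdc45 with BCR-ABL1 in SHP2 wild-type cells, is the single one with an adjusted p below 0.05.

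In cells without BCR-ABL1, loss of SHP2 left the members spread around 0. Of the 37, 25 had a positive and 12 a negative difference, beside 55.9% positive over all tested genes, and the median was 0.041, beside 0.023. In limma 0 of the 37 reached an adjusted p below 0.05, beside 1.54% of all tested genes, and 5 had an unadjusted p below 0.05, beside 16.1%. With no filter on low values 1 member, Uhrf1, was called, beside 1.03% of all genes in that fit, and with array weights Uhrf1, E2f2 and Cdc45 were, 3 of the 37 beside 6.31%. The median moved when single libraries were left out. Without the SHP2-null library 2 that was high in Lyz2, it was 0.088 and 30 of the 37 were positive. Without null library 3 it was 0.022 with 21 positive, and without wild-type library 2 it was 0.027 with 23 positive. It was 0.026 after median-ratio scaling. Null library 2 was the lowest of its group for 20 of the 37 members.

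Uhrf1, which helps copy DNA methylation onto new strands, came closest to the threshold. In wild-type libraries 0 to 3 without BCR-ABL1 it was at 114, 132, 109 and 114 FPKM, and in null libraries at 150.2, 140.4, 154 and 140.0 FPKM. All 4 null libraries lay above all 4 wild-type libraries. The means were 117 ± 10.2 and 146 ± 6.99 FPKM, and limma gave a log2 difference of 0.32 ± 0.079 (SE) with an adjusted p of 0.0571. With the replicate number as a block, the adjusted p of Uhrf1 from limma was 0.0176. The libraries of this comparison were taken to pair, but the block draws on all 16 libraries, not only on those compared. Uhrf1 and E2f2 were then the 2 members called, beside 5.75% of all tested genes. Uhrf1 was also called without wild-type library 1 lacking BCR-ABL1 (adjusted p = 0.0309) or without null library 1 with BCR-ABL1 (0.0473). The range over the 24 alternatives was 0.0176 to 0.190. Without null library 2 the log2 difference of Uhrf1 was 0.29 and the adjusted p 0.156. Uhrf1 lies at chr17:56303321-56323486.

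Cdc45, which joins the Mcm2 to Mcm7 ring to make the moving helicase, had the smallest p after Uhrf1. It was at 34.4, 34.6, 33.2 and 34.3 FPKM in wild-type libraries 0 to 3 and at 39.9, 37.7, 35.3 and 40.2 FPKM in null libraries. The ranges did not overlap, with null library 2 the closest to the wild-type values. The log2 difference of Cdc45 was 0.16 ± 0.058 (SE), with an adjusted p of 0.192 from limma, and over the 24 alternatives the adjusted p ran from 0.0368 with array weights to 0.411. Without null library 2 the log2 difference was 0.20 and the adjusted p 0.162.

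E2f2, an activator of the programme, was at 26.1, 23.4, 21.0 and 16.0 FPKM in the 4 wild-type libraries without BCR-ABL1. The null libraries had 35.7, 35.8, 24.5 and 24.2 FPKM. Null libraries 0 and 1 were above every wild-type library, while null libraries 2 and 3 fell within the wild-type range. The means were 21.6 ± 4.32 and 30.1 ± 6.55 FPKM, and the log2 difference was 0.45 ± 0.17 (SE), with an adjusted p of 0.218 from limma. Without null library 2 the log2 difference was 0.54 and the adjusted p 0.252. With the replicate block the adjusted p of E2f2 was 0.00839, and each null library was above the wild-type library of the same number. Wild-type libraries had 6.10, 7.67, 4.67 and 4.86 FPKM of E2f1 and null libraries 7.17, 7.81, 6.28 and 6.21 FPKM, with overlap and a log2 difference of 0.22 ± 0.13 (SE), which was 0.26 without null library 2.

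Pold1, the catalytic subunit of polymerase delta, had 22.6, 34.7, 31.2 and 36.9 FPKM in the wild-type libraries, and 39.2, 42.4, 43.7 and 44.3 FPKM in those lacking SHP2. It did not overlap, and neither did Uhrf1 and Cdc45, so that 3 of 37 members stood higher in every null library, beside 9.09% of tested genes in either direction and 6.02% higher. The log2 difference of Pold1 was 0.45 ± 0.18 (SE), with an adjusted p of 0.239 from limma, and without null library 2 these were 0.43 and 0.412. The 95% interval lay within 1.5-fold for 34 of the 37, not for E2f2, Gins2 and Pold1. The nucleotide supply members had a median of -0.024, and Rrm2, the small subunit of ribonucleotide reductase, had 118, 103, 102 and 89.2 FPKM in the wild-type libraries and 112, 104, 82.4 and 106 FPKM in those lacking SHP2, with overlap.

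The difference between the SHP2 effects with and without BCR-ABL1, the interaction, was negative for 35 of 37 members, beside 60.3% of tested genes. The median was -0.17, beside -0.040, and 30 of the 37 were negative under quantile normalization. Without null library 2 lacking BCR-ABL1 the median was -0.21 and 36 were negative. In limma 0 of the 37 had an adjusted p below 0.05, beside 0% of all tested genes, and 6 had an unadjusted p below 0.05, beside 5.79%. Uhrf1 had the smallest p, with an interaction of -0.44 ± 0.11 (SE) and an adjusted p of 0.606. Chaf1b had -0.32 ± 0.10 (SE) and Cdc45 -0.25 ± 0.082 (SE). The estimate farthest from 0 was -0.60 ± 0.25 (SE), for Pold1. Without that null library 2 the estimates were -0.41 for Uhrf1, -0.37 for Chaf1b, -0.29 for Cdc45 and -0.58 for Pold1, with adjusted p-values from limma of 0.739 to 0.834. The 95% interval lay within 1.5-fold for 29 of the 37. The median SE of the interaction was 0.138, beside 0.0976 for either SHP2 effect, a gap set by the design because the interaction uses all 4 groups.

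BCR-ABL1 in SHP2 wild-type cells was accompanied by slightly higher estimates. Of the 37 members 32 had a positive difference between cells with and without BCR-ABL1, beside 59.8% of all tested genes, with a median of 0.10, beside 0.036. The count was 28 after median-ratio scaling. In limma 1 of the 37, Cdc45, had an adjusted p below 0.05, beside 4.67% of all tested genes in either direction and 2.95% higher. That share of members was no larger than that of all genes, and 3 of the 37 had an unadjusted p below 0.05, beside 19.1%.

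Cdc45, at the 33.2 to 34.6 FPKM given for SHP2 wild-type libraries without BCR-ABL1, was at 41.2, 37.2, 40.6 and 40.3 FPKM in those with it. The groups did not overlap, and the libraries without BCR-ABL1 were closely alike. The means were 34.1 ± 0.655 and 39.8 ± 1.80 FPKM, and Cdc45 rose by 0.22 ± 0.058 (SE) on the log2 scale, with an adjusted p of 0.0440 from limma. Over the 24 alternatives the adjusted p of Cdc45 ran from 0.0124 to 0.137, and 10 of the 24 kept the call. Of the 16 fits that left out a library, the 4 without null library 2 or 3 lacking BCR-ABL1 (0.0261 and 0.0444), null library 1 with BCR-ABL1 (0.0446) or wild-type library 1 with BCR-ABL1 (0.0324) kept it. The other 12 gave adjusted p-values from 0.0550 to 0.137, the highest without wild-type library 2 lacking BCR-ABL1. Cdc45 lies at chr16:18780447-18811987, and exons of Ufd1 on the other strand overlap its exons.

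In the same comparison Mcm7 was at 157, 160.0, 142 and 149 FPKM without BCR-ABL1 and at 179.6, 163, 164 and 166 FPKM with it. Those ranges did not overlap either, so 2 of 37 members were higher in every BCR-ABL1 library, beside 11.7% of tested genes in either direction and 7.66% higher. The log2 difference of Mcm7 was 0.15 ± 0.065 (SE), with an adjusted p of 0.229 from limma. Uhrf1, with the smallest p after Cdc45, had 0.19 ± 0.079 (SE) and an adjusted p of 0.197. This comparison and the loss of SHP2 without BCR-ABL1 share the same 4 wild-type libraries, in which Cdc45 and E2f2 had their lowest group means.

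Cdc6, a licensing factor that loads the helicase, was at 18.4, 17.1, 15.3 and 16.5 FPKM without BCR-ABL1 and at 20.3, 17.3, 19.3 and 18.9 FPKM with it in wild-type cells. The ranges of Cdc6 overlapped, and its log2 difference was 0.17 ± 0.085 (SE). Mcm5 was at 83.1, 90.1, 88.6 and 95.2 FPKM without and 88.6, 89.3, 106 and 98.7 FPKM with BCR-ABL1, again with overlap. By role the medians ran from 0.015 for nucleotide supply to 0.25 for the pair of E2F activators, and all 14 helicase activation, clamp and polymerase members were positive.

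**Figure D3:**
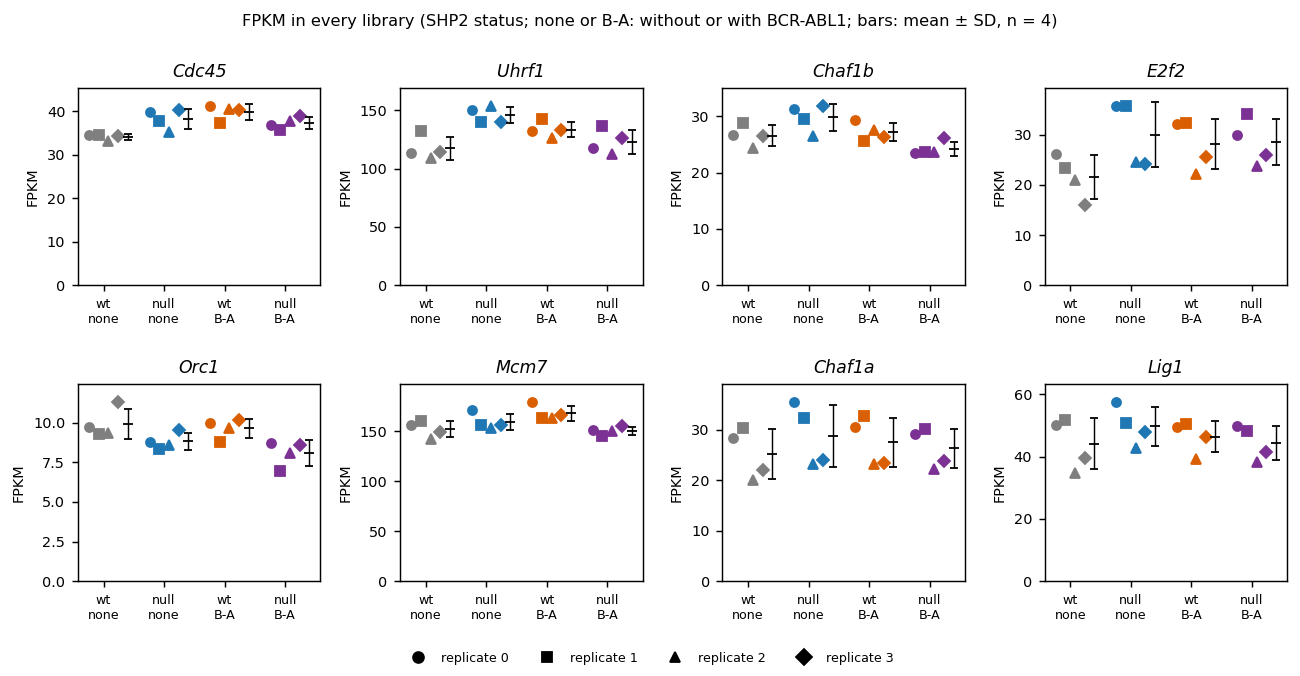
FPKM of 8 replication genes in every library, with axes from 0, 4 groups along each axis, a symbol for each replicate number and bars for the mean ± SD (n = 4). Cdc45 is lowest in SHP2 wild-type cells without BCR-ABL1, at 33.2 to 34.6 FPKM, and in Chaf1a and Lig1 replicates 0 and 1 lie above 2 and 3 in all 4 groups.

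BCR-ABL1 in SHP2-null cells was accompanied by slightly lower estimates. Of the 37 members 30 had a negative difference, beside 52.4% of all tested genes, with a median of -0.071, beside -0.0077. In limma 0 of the 37 had an adjusted p below 0.05, beside 1.26% of all tested genes, and 4 had an unadjusted p below 0.05, beside 13.5%. Chaf1b was the 1 member called with median-ratio scaling, beside 1.39% of all tested genes, and with quantile normalization, beside 1.46%. With array weights Chaf1b, Mcm2 and Uhrf1 were called, 3 of the 37 beside 18.2%. The median again moved when single libraries were left out. Without null library 2 lacking BCR-ABL1 it was -0.12, 33 were negative and 1, Chaf1b, was called, beside 1.68% of all tested genes. Without null library 1 with BCR-ABL1 it was -0.035 with 26 negative, and without null library 3 lacking BCR-ABL1 it was -0.046 with 28 negative. Under quantile normalization it was -0.044 with 27 negative.

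Chaf1b was at 31.3, 29.5, 26.5 and 31.9 FPKM in null libraries without BCR-ABL1 and at 23.5, 23.7, 23.7 and 26.1 FPKM with it. The groups did not overlap, by a margin of under 1 FPKM between library 2 of the former and library 3 of the latter. The means were 29.8 ± 2.44 and 24.3 ± 1.26 FPKM, and the log2 difference was -0.28 ± 0.072 (SE), with an adjusted p of 0.0756 from limma. With the replicate block the adjusted p of Chaf1b was 0.0256, which made it the 1 member called, beside 5.27% of all tested genes. Without null library 2 lacking BCR-ABL1 the log2 difference of Chaf1b was -0.34 and the adjusted p 0.0263. The range over the 24 alternatives was 0.00432 to 0.242. Chaf1b lies at chr16:93883901-93906115.

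Uhrf1 was at 118, 136, 112 and 126 FPKM in null libraries with BCR-ABL1, all below the 4 null libraries without it. Its log2 difference was -0.25 ± 0.079 (SE), with an adjusted p of 0.160 from limma, and without null library 2 lacking BCR-ABL1 these were -0.22 and 0.228. Chaf1b and Uhrf1 were the 2 of 37 members lower in every BCR-ABL1 library, beside 7.07% of tested genes in either direction and 3.31% lower. Mcm2 fell short of that, at 76.9, 73.9, 67.2 and 82.2 FPKM without BCR-ABL1 and 58.3 to 72.4 FPKM with it, and its adjusted p was 0.222. The log2 difference of Mcm2 was -0.23, and without null library 2 lacking BCR-ABL1 it was -0.28 with an adjusted p of 0.114. This comparison and SHP2 loss without BCR-ABL1 share the 4 null libraries without BCR-ABL1, in which Uhrf1 and Chaf1b had their highest group means.

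A score per library, the mean over the 37 genes of log2(FPKM + 1) minus the gene mean over 16 libraries, summarises these differences. SHP2 wild-type libraries without BCR-ABL1 averaged -0.041 ± 0.034 (SD, n = 4) and null libraries 0.037 ± 0.078, or 0.069 ± 0.052 (n = 3) without library 2. With BCR-ABL1, wild-type libraries averaged 0.058 ± 0.052 and null libraries -0.053 ± 0.069. The lowest library was null library 1 with BCR-ABL1 at -0.12 and the highest null library 3 without it at 0.11. The ranges of any pair of groups overlapped, and the whole span from lowest to highest library was 0.23 on the log2 scale. Within the pairs of libraries of the same number, null libraries scored below wild type in 4 of 4 pairs with BCR-ABL1, by 0.029 to 0.17, and above it in 4 of 4 pairs without BCR-ABL1, by 0.025 to 0.14. In null cells BCR-ABL1 went with a lower score in 3 of 4 pairs, the exception being number 2 at 0.012 higher. The median over all tested genes of the same centred value also moved between libraries. It ran from -0.048 in wild-type library 2 without BCR-ABL1 to 0.036 in wild-type library 0 with it, and was not subtracted. The scores are a description and were not tested.

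**Figure D4:**
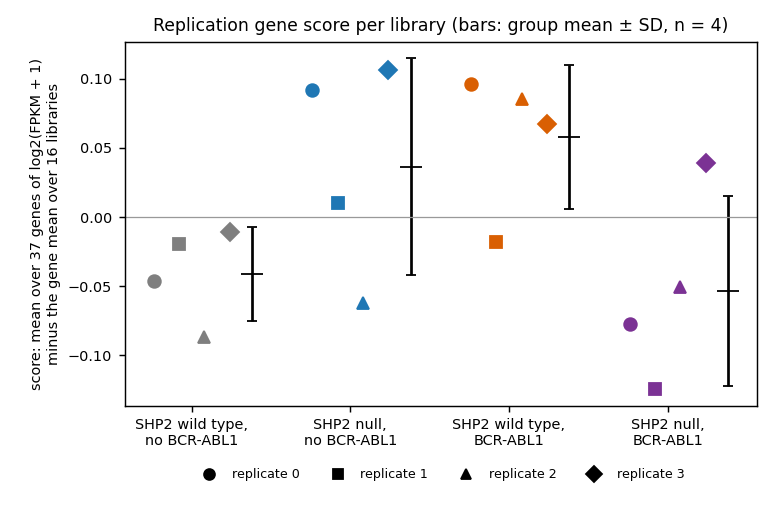
Score per library, the mean over 37 replication genes of log2(FPKM + 1) minus each gene's mean over 16 libraries, by group, with a symbol for each replicate number and bars for the mean ± SD (n = 4). Scores lie between -0.12 and 0.11, and every group overlaps every other.

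Much of the spread followed the replicate number in the labels rather than the group. In a fit of group plus replicate number, added after the data had been seen, the replicate number took a median of 50.6% of a member's variance and the group 20.2%. Over all tested genes the medians were 35.4% and 26.4%. Such a share is above 0 even for a factor with no effect. That level was not subtracted, so the shares are not sizes of an effect. The group took more than the number in 8 of the 37, namely Cdc45, Uhrf1, Chaf1b, Orc1, Mcm7, Mcm2, Mcm3 and Tk1, with 69.6% for Cdc45. By limma's moderated F test 18 of the 37 members had an adjusted p below 0.05 for the replicate number, beside 31.3% of all tested genes. For the group, tested in the same fit, 5 of the 37 did, namely E2f2, Orc1, Uhrf1, Cdc45 and Chaf1b, beside 17.3% of all tested genes.

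Chaf1a, the large subunit of CAF-1, showed the most of this, with 87.8% of its variance on the replicate number. It was at 28.4, 30.3, 20.1 and 22.1 FPKM in libraries 0 to 3 of wild-type cells without BCR-ABL1, at 35.6, 32.4, 23.3 and 24 FPKM in null cells without it, at 30.7, 32.7, 23.3 and 23.5 FPKM in wild-type cells with it and at 29.1, 30.2, 22.2 and 23.9 FPKM in null cells with it. Libraries 0 and 1 were above libraries 2 and 3 in all 4 groups, without overlap, and the moderated F test for the number gave an adjusted p of 8.76e-05. Lig1, the ligase that seals Okazaki fragments, was at 48.1 to 57.5 FPKM in libraries 0 and 1 and at 34.8 to 47.7 FPKM in 2 and 3, with an adjusted p of 0.00105. For E2f2 the ranges were 23.4 to 35.8 and 16.0 to 26.0 FPKM, with an adjusted p of 0.00184. Chaf1a and Lig1 were chosen after their values were seen.

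Not all members were higher in libraries 0 and 1. Cdt1, the licensing partner of Cdc6, was at 6.64 to 10.7 FPKM in libraries 0 and 1 and at 9.59 to 14.8 FPKM in 2 and 3. Dntt, whose enzyme adds bases to V(D)J junctions, was at 21.3 to 37.3 FPKM in libraries 0 and 1. In 2 and 3 it was at 82.8 to 256 FPKM. The proliferation marker Mki67 went the other way, at 211 to 282 FPKM in libraries 0 and 1. In 2 and 3 Mki67 was at 177 to 212 FPKM, with an adjusted p of 0.00346 for the number by the moderated F test. The labels say that libraries were loaded in sets holding a library of each group, without saying that the number marks the set. What the number stands for was not tested.

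**Figure D5:**
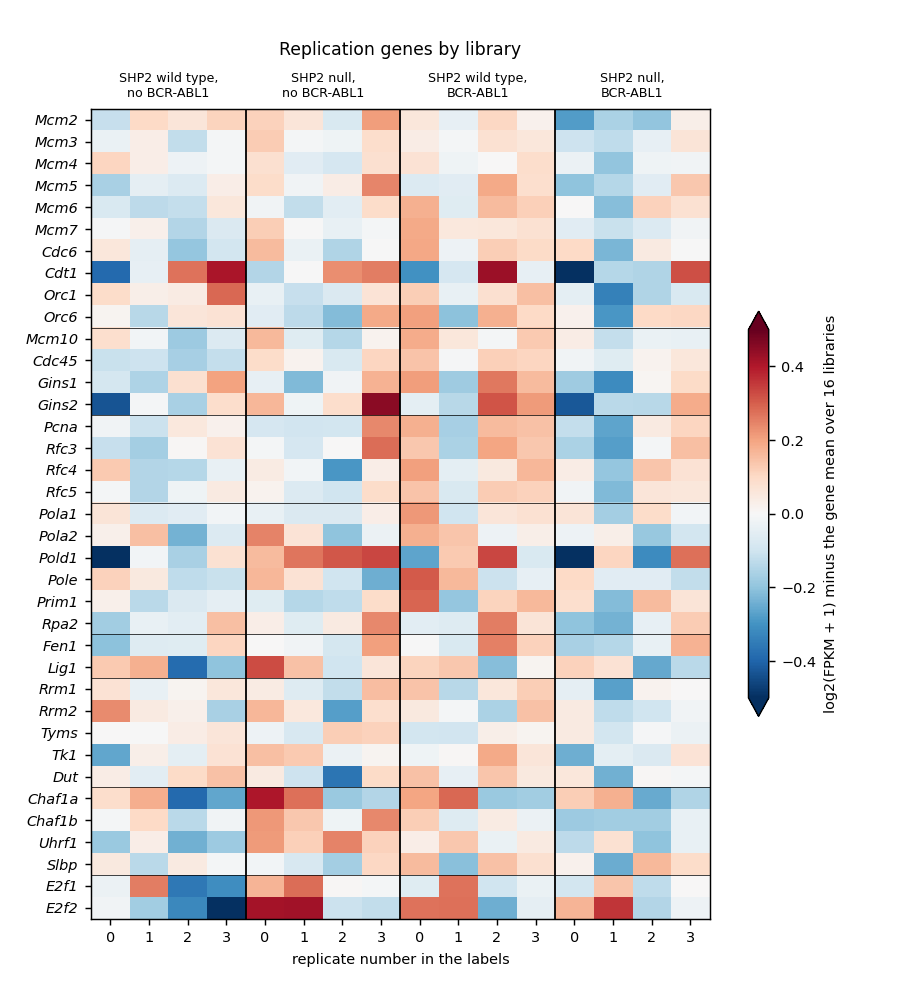
log2(FPKM + 1) of each replication gene minus its mean over 16 libraries, with genes in rows by role and libraries in columns by group and replicate number (red above, blue below the gene mean, colours capped at the ends of the scale). Chaf1a, Lig1 and E2f2 repeat a step between replicates 0 and 1 and replicates 2 and 3 in all groups, and no group is of a single colour.

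Other genes of the same machinery were read from lists of non-members, all of whose genes were tested. Tipin and Bub1 stand on 2 of these lists each. Of 40 other replication genes 0 were called for SHP2 loss in either setting, and their medians were -0.081 with BCR-ABL1 and 0.018 without it. For BCR-ABL1 in wild-type cells 1 of the 40 rose, Rrm2b, a p53-inducible subunit of ribonucleotide reductase, from 6.29 ± 0.691 to 8.51 ± 1.21 FPKM (log2 difference 0.38, adjusted p = 0.0245, limma). That is no larger a share than the 2.95% of all tested genes called higher there. For BCR-ABL1 in SHP2-null cells 1 of the 40 fell, Dna2, a nuclease of Okazaki fragment processing, from 19.1 ± 0.930 to 15.8 ± 1.02 FPKM (log2 difference -0.26, adjusted p = 0.0495, limma), beside 1.26% of all tested genes called in either direction. Rrm2b in these null cells had a log2 difference of 0.36, with an adjusted p of 0.0686 in limma and 0.0293 with the replicate block. Over the alternatives the adjusted p of Rrm2b in wild-type cells ran from 0.00446 to 0.0938 and that of Dna2 in null cells from 0.0109 to 0.225, so neither call held throughout.

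Of 15 genes of the E2F, RB and DREAM complexes, Lin52, a DREAM subunit, rose with BCR-ABL1 in wild-type cells, from 6.36 ± 0.588 to 7.92 ± 0.685 FPKM (log2 difference 0.28, adjusted p = 0.0381, limma), the 1 gene called of its list in that comparison. Its adjusted p ran from 0.0120 to 0.130 over the alternatives. Rb1, the gene of the RB protein that restrains E2F, was at 9.45 to 13.2 FPKM over all libraries and was called in none of the 5 comparisons. Of 25 other E2F targets, Myb, a transcription factor of blood progenitors, rose in the same comparison from 90.2 ± 7.26 to 122 ± 7.18 FPKM (log2 difference 0.43, adjusted p = 0.0107, limma), as the 1 gene called of the 25. With lists of 15 and 25, 1 call each is read against the same 2.95%. Its adjusted p ran from 0.00234 to 0.0557 over the alternatives. Of 17 markers of G2 and mitosis 0 were called in any of the 5 comparisons. Mki67 was at 177 to 282 FPKM and Top2a, the topoisomerase of dividing cells, at 275 to 393 FPKM, and the G2 and mitosis list had a median of -0.029 for SHP2 loss with BCR-ABL1, beside -0.12 for the replication genes.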

How the data were processed

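PolyA RNA of 16 pre-B cell samples was sequenced after a stranded Illumina TruSeq preparation from 150 ng RNA, per the labels' protocols. The authors deposited FPKM values by gene symbol, in 1 column for each library. Per the submitters' processing notes, the tools included Bowtie and Cufflinks, and the build was mm10 (GRCm38). The sources used here do not give their roles or versions, the annotation, or how strand and multiply mapped reads were handled. The 16 per-library files equalled the series table, which held 23758 entries. Entries sharing a symbol were summed (254 symbols, 733 entries). Depth is unknown. The commonest ratio of values below 0.05 FPKM between libraries held within 1% for 9.61% to 18.9% of genes, too few to recover whole reads, and gave relative depths of 0.795 to 1.27.

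Tests used log2(FPKM + 1), a scale that understates changes of genes at low levels. A single limma fit (trended prior variance, 4 group means) of the 10210 genes that reached 1 FPKM in 4 or more libraries gave 5 comparisons. Tests were two-sided, p-values were adjusted over all tested genes by Benjamini-Hochberg, and the threshold was 0.05. Tested on simulated data for SHP2 loss with BCR-ABL1 (10123 genes), it found 66 of 100 genes changed by a log2 difference of 0.5 and 93 of 100 changed by 1, with 10 false calls. Versions were R 4.3.3, limma 3.58.1, Python 3.11.15, pandas 2.3.3 and numpy 2.4.6. Gene positions came from GENCODE on GRCm38.

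Deviations from group means correlated above 0.1 for every same-number pair of libraries in SHP2 loss with BCR-ABL1 (0.218 to 0.783), SHP2 loss without it (0.189 to 0.510) and BCR-ABL1 in SHP2-null cells (0.242 to 0.680), so there the replicate numbers were taken to pair libraries. This comes from the data, since the labels do not state it. The block fitted an effect of each number shared by all 16 libraries, so it was not confined to the groups compared.

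The members and lists were chosen with earlier results of these data known. Chosen to be named were called members, the 3 smallest p-values of each comparison and Mcm5, Cdc6, Pcna, Rrm2, Tyms, E2f1 and E2f2. For some of these, values by library are given for only part of the groups. Alternatives changed the pseudocount, filter, scaling, block, weights or libraries in the fit. 1 marker gene is not reported here.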

Additional observations from a re-analysis of the deposited data

Results flagged for a closer look

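Single libraries far from the other 3 of their group were looked for in 152 sets of 4 values, and 6 were found (3.95%). Chance flags about 1 in 20 groups. With BCR-ABL1, wild-type library 1 was low for Pcna at 358 FPKM against 445 to 455 FPKM, low for the clamp loader subunit Rfc5 at 39.0 FPKM against 44.5 to 45.5 FPKM, and high for E2f1 at 7.76 FPKM against 5.78 to 6.09 FPKM. Null library 1 with BCR-ABL1 was low for Mcm4 at 65.4 FPKM against 73.6 to 74.1 FPKM. Null library 3 with BCR-ABL1 was high for Chaf1b at 26.1 FPKM against 23.5 to 23.7 FPKM. Null library 3 without BCR-ABL1 was high for Pcna at 475 FPKM against 376 to 379 FPKM.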

How the results depend on the processing

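The median of the 37 members kept its sign in all 5 comparisons under every alternative run, and it moved by more than the spread between replicates (0.061, the pooled SD of the per-library score within groups) for SHP2 loss with BCR-ABL1 under quantile normalization, to -0.053. Within that spread, quantile normalization took the interaction median to -0.12. The median for BCR-ABL1 in wild-type cells was 0.068 after median-ratio scaling and 0.072 after quantile normalization, also within it. That SD is of single libraries and the medians are differences between groups, so it is only a rough yardstick. No member was called for SHP2 loss with BCR-ABL1 or for the interaction under any alternative. For SHP2 loss without BCR-ABL1 the count was 1 with no filter, 2 with the replicate block, 3 with array weights and 0 to 1 leaving out a library. For BCR-ABL1 in wild-type cells it was 0 with a mean of at least 5 FPKM, 0 in a fit of the groups compared only, 2 with the replicate block (Cdc45 and E2f2, the latter at an adjusted p of 0.0136 in limma, beside 12.1% of all tested genes called) and 0 to 1 leaving out a library. The replicate numbers did not meet the bound of 0.1 for pairing there, with same-number correlations from 0.0549 to 0.643. Only the pair numbered 3 fell below the bound, and the other pairs were at 0.338 to 0.643. Of the 8 libraries, 4 correlated best with their own number. The count was also 4 of 8 for SHP2 loss with BCR-ABL1, where the bound was met. For BCR-ABL1 in SHP2-null cells the count of called members was 1 with median-ratio scaling, 1 with quantile normalization and 1 with the replicate block. It was 3 with array weights and 0 to 1 leaving out a library. The replicate block changed no other call of a member. A fit on the groups compared only does not apply to the interaction, which uses all 4. The span of the scores, 0.23, was 0.145 under median-ratio scaling and 0.166 under quantile normalization, both added after seeing the data. The cause of these shifts was not tested. With 4 libraries a group and unknown depth, a difference of about 0.5 on the log2 scale could be missed.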
